A study of Mus musculus with 16 samples.

Results

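The S-phase DNA synthesis and chromatin assembly module comprised 35 genes that copy DNA and rebuild chromatin behind the replication fork, and they were followed in mouse retinal microglia after optic nerve crush. Its members were picked by gene name for these functions, with earlier results of these data known. Each of the 35 was found once among the 55385 genes of the table, and the MCM helicase genes, nucleotide synthesis enzymes and histones were kept out on purpose and are used below only as companions. RNA of EGFP-positive cells sorted from the retina of Iba1-EGFP mice, a strain in which the Iba1 promoter marks microglia and other macrophages with a fluorescent protein, was sequenced in 16 libraries. The 4 groups held 4 libraries each: untreated retina at day 0, from mice aged 15 weeks, and retina at day 2 (13 weeks), day 4 (13 weeks) and day 7 (16 weeks) after crush of the optic nerve, an injury of the axons of retinal ganglion cells. Age therefore cannot be told apart from day, except between day 4 and day 2. The labels describe no sham-operated group, and do not state whether each library is a different animal; the p-values thus cover the spread among these libraries, which may be technical. All values are FPKM, a level scaled to gene length and sequencing depth.

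DNA replication begins when the CDC45-MCM-GINS helicase opens the double helix at licensed origins. Polymerase alpha with its primase lays down short primers, the clamp loader RFC places the ring-shaped clamp PCNA on the primed strand, and polymerases delta and epsilon extend it while RPA covers single-stranded DNA. Okazaki fragments are then trimmed and joined, new nucleosomes are laid down by CAF-1 and ASF1, and methyl groups are copied to the new strand by UHRF1 and DNMT1. In dividing cells many of these genes are transcribed by E2F factors as S phase approaches. Microglia of the undisturbed retina rarely divide, and they are known to proliferate after nerve injury. In bulk RNA, more cells in S phase and more RNA per cell cannot be told apart.

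The libraries held between 8647276 and 15708302 reads as recovered from the FPKM steps, and 14795 genes reached 1 FPKM in at least 4 libraries and were tested. The microglial genes Aif1, which encodes Iba1, and P2ry12 were present in every library, with lowest values of 130 and 150 FPKM. Rod genes were present as well, with Gnat1, the rod transducin gene, at 847 FPKM or more in each library. Day 0 replicate 1 stood apart from the other 3 day 0 libraries, with 12 microglial markers summing to 3278 FPKM against 7259 to 12985, endothelial markers to 402 against at most 133, erythrocyte markers to 418 against at most 6.57, and 16522 genes at 1 FPKM or more against at most 12285. All 37 mitochondrial genes are listed at 0 in all 16 libraries, so an exact 0 in this table can be a missing estimate and is given below as listed at 0. The titles carry a numeric code that divides every day into 2 sets, replicates 1 and 2 and replicates 3 and 4, called title-code sets 1 and 2 here; the labels do not say what the code stands for, and it was a covariate in the fit. The title letter was F in day 2 replicates 3 and 4 and M in the other 14 libraries. Xist stayed at or under 0.0946 FPKM in all 16 libraries, and the Y-linked gene Ddx3y was 10.04 to 11.7 FPKM in those with the letter F, whose meaning the labels do not give.

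Averaged over all 4 libraries of a day, expression of the module was low in untreated microglia, higher at day 2, highest at day 4 and low again at day 7. The day 4 maximum held in title-code set 1, with a mean member level of 3.94 at day 4 and 2.39 at day 2, and not in set 2, with 2.90 at day 4 and 3.35 at day 2. The mean level of the 35 members, as log2(FPKM + 1), was 1.64 ± 0.28 at day 0, 2.87 ± 0.55 at day 2, 3.42 ± 0.62 at day 4 and 1.93 ± 0.34 at day 7 (SD, n = 4 each). Every library of days 2 and 4 lay above every library of day 0, and the day 7 libraries overlapped those of day 0. The number of members at 1 FPKM or more was 14 to 22 per library at day 0, 24 to 29 at day 2, 24 to 33 at day 4 and 15 to 27 at day 7. The number of genes of any kind at that level overlapped between all days, at 9493 to 16522, 10708 to 12049, 9808 to 13050 and 9315 to 12509. Of the 31 members that passed the filter on low values, 24 had their highest mean level at day 4, 6 at day 2 and 1, Rpa3, at day 7. The day of the highest mean was not counted over all genes tested, so these numbers have no background beside them. All genes tested were also somewhat higher at day 4, with a median change of 0.16 against day 0 and 0.16 against day 2.

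**Figure D1:**
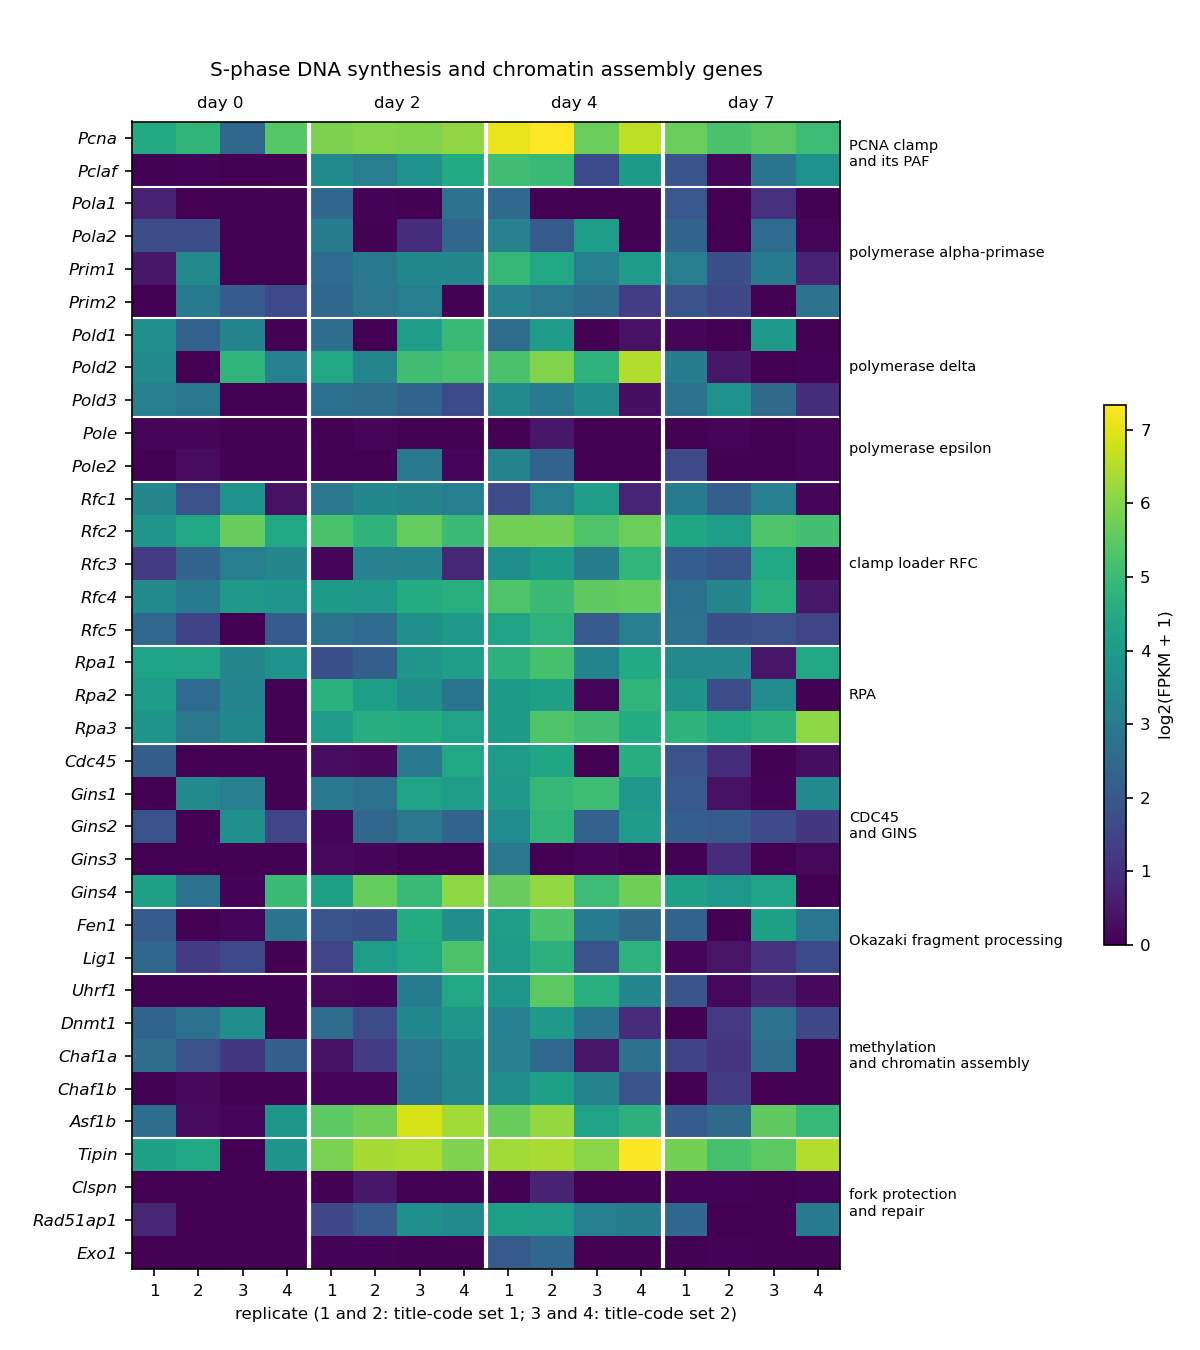
Expression of the 35 module genes (rows, grouped by role) in the 16 libraries (columns, 4 per day, numbered by replicate), coloured by log2(FPKM + 1). Most rows are brightest at day 4, Pclaf, Uhrf1 and Chaf1b are dark throughout day 0, and at day 2 replicates 3 and 4 are brighter than replicates 1 and 2 in many rows.

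Differences between days were tested with limma on log2(FPKM + 1), with title-code set as a covariate and p-values adjusted over all genes tested. The added 1 FPKM makes the change of a low gene smaller than its ratio of levels. At day 2 against day 0, 1 of the 31 tested members, Asf1b, was higher and 0 lower at an adjusted p under 0.05, where 0.25% of all genes tested were higher and 0.0608% lower. The median change of the tested members was 1.40, against 0.04 for all genes, and for 9 members all 4 day 2 libraries lay above all 4 day 0 libraries, which held for 3.37% of all genes; for 0 members they lay below, beside 1.35%. At day 4 against day 0, 8 members were higher and 0 lower, where 4.62% of all genes were higher and 0.716% lower. The 8 were Pcna, Pclaf, Prim1, Uhrf1, Chaf1b, Asf1b, Tipin and Rad51ap1. The median change was 2.02, against 0.16 for all genes, and 11 members had all day 4 libraries above all day 0 libraries and 0 had them below, beside 12.6% and 1.89% of all genes. At day 7 against day 0 limma called 0 members higher and 0 lower, beside 0.27% and 0.135% of all genes. An unadjusted p under 0.05 was found for 6 members, beside 12.1% of all genes. On recovered reads limma voom also called 0, and the median change was 0.25 against -0.07. Day 0 is the same 4 libraries in these comparisons. Over all days at once, limma's F test called 6 members, Uhrf1, Pold2, Pclaf, Asf1b, Tipin and Pcna, beside 2.89% of all genes. A member that passed the filter only through the days when it is high had to differ, so these counts describe the tested members and not the module as a whole. Of the 8 called at day 4, Pclaf, Uhrf1, Chaf1b and Rad51ap1 reached 1 FPKM in 0 day 0 libraries and passed only that way. Their p-values describe a change and are not independent support for it. Without day 0 replicate 1, which stood apart, 0 members were called at day 2, 7 at day 4 (all but Prim1) and 0 at day 7 against day 0, with median changes of 1.598, 2.25 and 0.31. Without day 4 replicate 1 the day 4 count was 4, and without day 4 replicate 2 it was 2. With median-of-ratios scaling, which moved the median of all genes at day 4 to -0.17, it was 3 (Pclaf, Uhrf1 and Rad51ap1). Calls over all genes at day 4, in either direction, were 5.34% in the main fit. They were 2.66% without day 4 replicate 1, 1.8% without day 4 replicate 2 and 1.82% with that scaling. Without day 0 replicate 1 they were 0.21%, 3.68% and 0.182% at days 2, 4 and 7. Relative to the median of all genes, the member median at day 4 was 1.86 as deposited and 1.81 after median-of-ratios scaling.

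**Figure D2:**
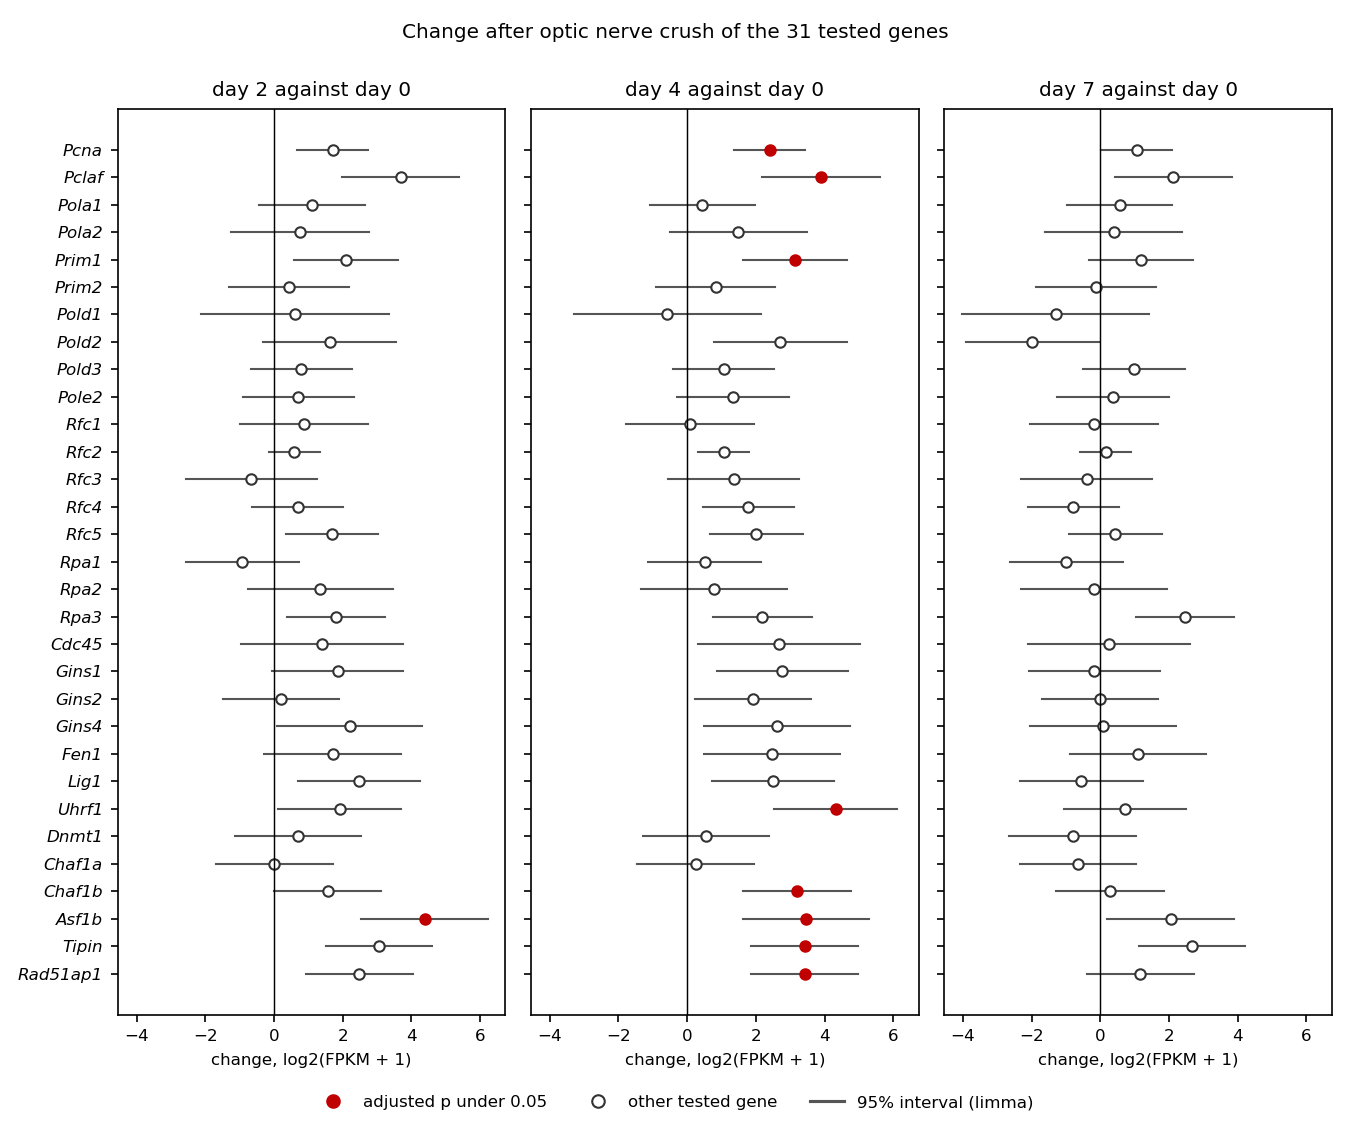
Change of the 31 tested members at days 2, 4 and 7 against day 0 (x axis, difference in log2(FPKM + 1); lines are 95% intervals from limma). Filled points passed an adjusted p of 0.05, which 1 member did at day 2, 8 did at day 4 and none at day 7, where most intervals cross 0.

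Promoter sequence was a property that the choice of members did not use. Windows of 250 bases before to 50 after the transcription start were available from RefSeq (GRCm38.p6) for 27 of the 35 members. E2F-type elements were searched for on both strands as TTCCCGC, as well as TTCGCGC, together with TTGCCGC and also with TTGGCGC. At least 1 was found for 20 of the 27 members (74.1%), beside 10.9% of all 27025 genes with a window and 19.5% of the 8833 of these that were among the genes tested. The CCAAT box was found for 66.7% of the members and 41.1% of all genes, and TTTGAA, the core of the CHR element of late cell cycle genes, for 22.2% and 20.2%. A match is a run of letters and not a measured binding site. Among the 8 genes higher at day 4, 5 of the 7 with a window held an E2F-type match, and those whose match lies fully within 90 bases before to 30 after the start are shown, smallest F test p first, with the matches in capitals.
Uhrf1, first of its windows (chr17:56303247-56303366, plus strand): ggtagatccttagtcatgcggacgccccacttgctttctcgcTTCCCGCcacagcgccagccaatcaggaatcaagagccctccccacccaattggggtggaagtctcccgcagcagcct
Pclaf (chr9:65890233-65890352, plus strand): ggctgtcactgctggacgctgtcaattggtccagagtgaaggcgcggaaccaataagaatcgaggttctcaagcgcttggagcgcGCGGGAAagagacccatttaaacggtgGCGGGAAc
Rad51ap1 (chr6:126939558-126939677, minus strand): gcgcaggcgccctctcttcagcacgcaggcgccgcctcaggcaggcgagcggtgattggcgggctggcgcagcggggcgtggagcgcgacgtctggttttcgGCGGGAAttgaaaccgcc
Prim1 (chr10:128015125-128015244, plus strand): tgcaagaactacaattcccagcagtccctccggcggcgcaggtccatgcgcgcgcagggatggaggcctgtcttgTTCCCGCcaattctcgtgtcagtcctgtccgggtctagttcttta
The match begins 48 bases before the start in Uhrf1 and 15 before it in Prim1, while Rad51ap1 carries its match 13 bases after the start and Pclaf carries one on each side, 5 before and 23 after. GCGGGAA is TTCCCGC read on the other strand, so these 4 stretches hold the same element. Chaf1b had matches 227 before and 27 after its start, Pcna and Asf1b had none in this window, and Tipin had no entry.

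Both genes of the clamp group were higher at day 4. Pcna, the sliding clamp (ENSMUSG00000027342, chr2:132249162-132253314), had 21.4, 26.6, 4.47 and 41.0 FPKM at day 0, 58.8, 62.7, 61.2 and 68.6 at day 2, 138, 161, 49.3 and 99.2 at day 4 and 49.2, 36.5, 42.9 and 31.5 at day 7. All 4 day 4 libraries lay above all 4 of day 0, and the change was 2.41 ± 0.48 (SE; limma adjusted p = 0.0113, and 0.0506 without day 4 replicate 2). The day 2 libraries also lay above those of day 0 and were close to one another, with a change of 1.71 ± 0.48 that was not called (adjusted p = 0.191). A near-identical copy, Pcna-ps2, covers 51.4% of the Pcna transcript, and its FPKM was 0.773 to 1.21 times that of Pcna in every library, so how the deposited counting divided their shared reads makes the level of each uncertain. Pclaf, which encodes the PCNA-associated factor PAF15 (ENSMUSG00000040204, chr9:65890237-65903266), had 0.0217, 0.0409, 0 and 0 FPKM at day 0, which is at most 2 reads per library. It had 10.2, 7.78, 12.4 and 21.3 FPKM at day 2, 33.0, 30.5, 2.13 and 14.9 at day 4, and 2.75, 0.0644, 6.11 and 12.7 at day 7. Its day 4 change of 3.90 ± 0.80 was called (adjusted p = 0.0123, and 0.055 without day 4 replicate 2), and the day 2 change of 3.69 ± 0.80 had an adjusted p of 0.076. Since day 0 was next to nothing, the size of both changes depends on the added 1 FPKM and no ratio is given.

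Among the priming and extending polymerases, 1 of 8 tested genes was higher at day 4. Prim1, the catalytic subunit of primase (ENSMUSG00000025395, chr10:128015168-128030037), had 0.377, 9.89, 0 and 0.00939 FPKM at day 0, 4.90, 6.84, 9.79 and 9.28 at day 2, 28.5, 19.5, 7.9984 and 15.6 at day 4 and 7.81, 2.43, 7.01 and 0.669 at day 7. One day 0 library lay above 1 of the 4 day 4 libraries, and the change was 3.13 ± 0.71 (adjusted p = 0.0206). This call was lost, at up to 0.068, when day 0 replicate 1, 3 or 4 or day 4 replicate 1, 2 or 4 was left out. The other subunits of the primase complex, Pola1, Pola2 and Prim2, were uneven between replicates and had day 4 changes of 0.44, 1.49 and 0.83 with adjusted p of 0.398 or more. Pola1 was 4.67 FPKM in 1 day 4 library and 0.0114 or less in the other 3. Pold2, an accessory subunit of polymerase delta, had 10.4, 0, 26.8 and 8.43 FPKM at day 0, 19.5, 9.10, 33.2 and 36.8 at day 2, 36.8, 60.6, 25.7 and 88.3 at day 4 and 7.45, 0.382, 0 and 0.0535 at day 7. Its day 4 change against day 0 was 2.71 ± 0.91 (adjusted p = 0.095). The catalytic gene Pold1 had no common direction, with a day 4 change of -0.57 ± 1.28, and Pold3, another accessory subunit, had 1.07 ± 0.69. Pole, the catalytic subunit of polymerase epsilon, reached 0.391 FPKM at most and was not tested, and its partner Pole2 had a change of 1.34 ± 0.76 (adjusted p = 0.344).

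None of the 8 genes of the clamp loader and the single-strand binding complex was called at any day against day 0. Rfc2 and Rfc4, small subunits of the loader, were detected in every library, at 13.4 to 53.8 and 0.414 to 47.4 FPKM. For Rfc4 the day 4 libraries had 38.5, 30.8, 45.8 and 47.4 FPKM against 10.3, 7.14, 14.4 and 13.3 at day 0, without overlap, and the change was 1.78 ± 0.62 (adjusted p = 0.109). Rfc5 changed by 2.02 ± 0.63 (adjusted p = 0.077), Rfc2 by 1.07 ± 0.35 (0.0878), Rfc3 by 1.35 ± 0.89 (0.422) and the large subunit Rfc1 by 0.09 ± 0.87 (0.966). Exons of Rfc2, Rfc4 and Rfc5 share 15.1%, 12.7% and 10.7% of their length with a gene on the other strand. With a kit that keeps no strand the reads there cannot be assigned to 1 gene. In addition, 28.3% of the longest Rfc5 transcript resembles stretches of 10 other genes, which makes its level uncertain. Rpa3, the smallest RPA subunit, had 12.9, 6.53, 9.79 and 0 FPKM at day 0, 15.7, 22.7, 22.1 and 17.7 at day 2, 14.9, 39.0, 33.1 and 21.9 at day 4 and 26.1, 20.7, 25.4 and 66.8 at day 7. Its changes against day 0 were 1.81 ± 0.67 at day 2, 2.19 ± 0.67 at day 4 and 2.47 ± 0.67 at day 7 (adjusted p = 0.36, 0.0729 and 0.157), and at each of these days all 4 libraries lay above all 4 of day 0. The large subunit Rpa1 and the middle subunit Rpa2 had day 4 changes of 0.51 ± 0.77 and 0.79 ± 0.99.

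The CDC45 and GINS genes, whose proteins join the MCM ring to form the active helicase, had positive day 4 changes that missed the threshold in the 4 tested of 5. Gins4, the most abundant of them, had 48.8, 69.4, 31.5 and 51.2 FPKM at day 4 against 17.4, 5.69, 0.0572 and 30.8 at day 0 (change 2.62 ± 0.99, adjusted p = 0.141). Gins1 had 14.7, 28.5, 32.1 and 13.9 FPKM at day 4 against 0, 10.4, 7.90 and 0.024 at day 0 (2.78 ± 0.89, adjusted p = 0.0854). For both genes the day 4 libraries did not overlap those of day 0. Cdc45 had 15.6, 18.7, 0 and 22.6 FPKM at day 4 against 3.48, 0, 0 and 0 at day 0 (2.69 ± 1.10, adjusted p = 0.175), so that 1 day 4 library is listed at 0. Gins2 had a change of 1.91 ± 0.79 (adjusted p = 0.178), and 67.3% of its exon length lies opposite exons of Gse1. Gins3 was above 1 FPKM in 1 library, 6.56 in day 4 replicate 1, and was not tested.

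The genes that finish Okazaki fragments were not called at day 4. Lig1, the ligase that seals the nicks, had 15.2, 25.5, 2.77 and 25.8 FPKM at day 4 against 4.59, 1.45, 2.08 and 0 at day 0 (2.50 ± 0.84, adjusted p = 0.095). Its day 2 levels were 1.90, 15.9, 20.2 and 37.9, with a change of 2.48 ± 0.84 (adjusted p = 0.305). Fen1, the flap nuclease, changed by 2.48 ± 0.93 at day 4 (adjusted p = 0.138). Exons of genes on the other strand cover 84.2% of the Fen1 exon length, so its level is uncertain.

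The chromatin group held the member with the smallest p at day 4 and the only one called at day 2. Uhrf1, which reads hemimethylated DNA and brings DNMT1 to it (ENSMUSG00000001228, chr17:56303321-56323486), had 0.0245, 0.0231, 0.0181 and 0 FPKM at day 0, no more than 1 read per library. It had 0.109, 0.063, 7.65 and 20.1 FPKM at day 2, 13.8, 43.6, 23.9 and 9.52 at day 4 and 2.81, 0.109, 0.615 and 0.131 at day 7. The day 4 change was 4.33 ± 0.84 (limma adjusted p = 0.00978), and no ratio is given for the reason stated for Pclaf. The call stayed when any 1 library was left out and in 12 of 14 other alternatives. Uhrf1 passed the filter only through days after crush, so neither the p-value nor these refits are independent support for the change. Gm5648 resembles 44.3% of the Uhrf1 transcript and stood at 0.116 to 0.268 times its FPKM in the 7 libraries where Uhrf1 reached 1 FPKM. Dnmt1, the maintenance methyltransferase, had 8.59, 14.3, 6.15 and 0.902 FPKM at day 4 against 4.17, 5.75, 11.4 and 0.00493 at day 0, which overlap (change 0.55 ± 0.86, adjusted p = 0.767).

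Chaf1b and Chaf1a encode subunits of CAF-1, which places histones H3 and H4 on new DNA. Chaf1b (ENSMUSG00000022945, chr16:93883901-93906115) had 0.0223, 0.126, 0.0165 and 0 FPKM at day 0, 0.0988, 0.0764, 6.26 and 9.38 at day 2, 11.6, 16.9, 8.82 and 2.73 at day 4 and 0, 1.44, 0 and 0.0217 at day 7. Its day 4 change was 3.20 ± 0.73 (adjusted p = 0.022, and up to 0.0831 without day 0 replicate 4 or day 4 replicate 1 or 2). Chaf1a changed by 0.25 ± 0.79 (adjusted p = 0.889), with 52.5% of its exon length opposite Ubxn6, so the CAF-1 partners did not both pass. The histone H3-H4 chaperone Asf1b (ENSMUSG00000005470, chr8:83955507-83970197) had 5.31, 0.168, 0.0991 and 13.7 FPKM at day 0, 44.1, 52.5, 118 and 78.8 at day 2, 48.4, 71.2, 17.8 and 25.2 at day 4 and 3.22, 4.78, 46.2 and 29.1 at day 7. It was higher at day 2 (4.39 ± 0.86, adjusted p = 0.0483) and at day 4 (3.46 ± 0.86, adjusted p = 0.0321), without overlap with day 0 on either day. The day 2 call was lost in 13 of 16 fits that left out 1 library, all but those without day 0 replicate 4, day 4 replicate 3 or day 7 replicate 3, with adjusted p of up to 0.181, and the day 4 call was lost without day 0 replicate 2 or 3 or day 4 replicate 1 or 2, at up to 0.113. Its day 7 libraries split by title-code set, with replicates 3 and 4 above every day 0 library and replicates 1 and 2 within their range.

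In the fork protection and repair group both tested genes were higher at day 4. Tipin, which with Timeless steadies the stalled fork (ENSMUSG00000032397, chr9:64281581-64305424), had 17.3, 19.8, 0 and 12.9 FPKM at day 0, 57.7, 82.7, 84.8 and 59.4 at day 2, 78.6, 83.8, 64.1 and 157 at day 4 and 55.3, 36.0, 44.3 and 89.4 at day 7. Every library after crush lay above every day 0 library, and the change was 3.06 ± 0.73 at day 2 (adjusted p = 0.116), 3.42 ± 0.73 at day 4 (0.0147) and 2.66 ± 0.73 at day 7 (0.157). The day 4 call stayed when any 1 library was left out, and in 6 of 14 other alternatives. It was lost with the full title code, pseudocount 0.1, no filter, median-of-ratios factors, limma voom and only the 2 groups compared. Set 2 alone and the bipolar and Mueller covariate also lost it. Day 0 replicate 3, listed at 0, enters these fits. Rad51ap1, a gene of DNA repair by homologous recombination (ENSMUSG00000030346, chr6:126923050-126939587), had 0.736, 0.0204, 0.016 and 0 FPKM at day 0, 1.95, 3.15, 11.8 and 10.4 at day 2, 17.1, 16.1, 8.03 and 7.43 at day 4 and 4.63, 0, 0 and 7.02 at day 7. Its day 4 change was 3.42 ± 0.73 (adjusted p = 0.0154, and up to 0.0603 without day 4 replicate 1 or 2), with no overlap between day 4 and day 0. Clspn, which relays the checkpoint signal, peaked at 0.614 FPKM, and the exonuclease gene Exo1 was 3.24 and 4.49 FPKM in day 4 replicates 1 and 2 and 0.0549 or less in the other 14 libraries, so neither was tested.

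**Figure D3:**
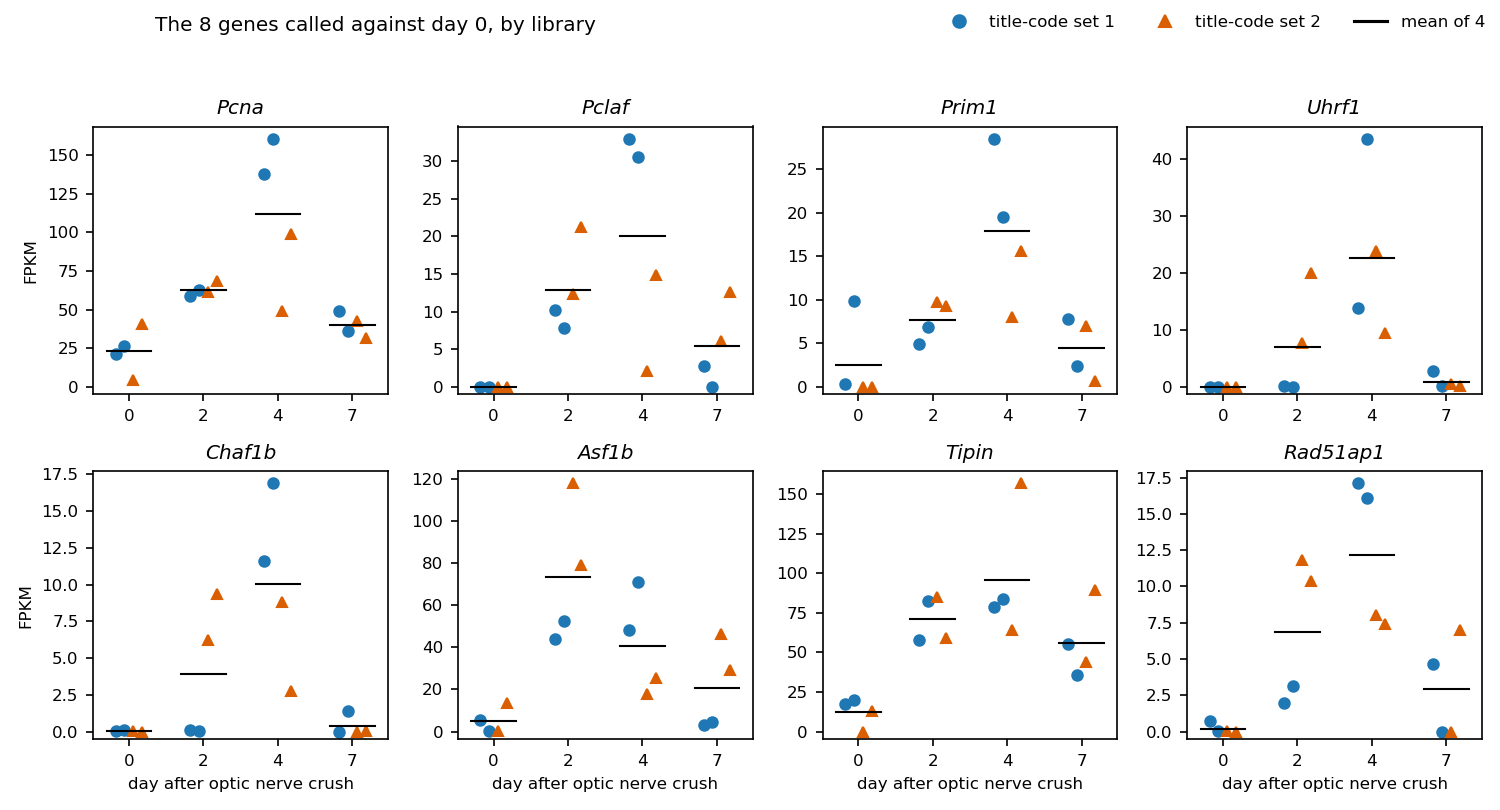
FPKM of the 8 members called against day 0, by day, 1 point per library (circles, title-code set 1; triangles, title-code set 2), with the mean of 4 as a bar. Uhrf1 and Chaf1b were near 0 in the 2 day 2 libraries of set 1 and between 6.26 and 20.1 in those of set 2, whereas Pclaf, Asf1b and Tipin lay above every day 0 library in all 4 day 2 libraries.

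Day 4 against day 2 compares mice of the same age, but the full title code differs between these days in both sets. limma called 0 members in either direction, beside 0.433% of all genes higher and 0.0203% lower, and limma voom also called 0. An unadjusted p under 0.05 was found for 4 members (Rfc3, Gins2, Uhrf1 and Chaf1b), beside 11.4% of all genes, so this count is near the background. Rfc4 alone had every day 4 library above every day 2 library, and 0 members had them below, beside 7.83% and 1.69% of all genes. The median change was 0.48, against 0.16 for all genes, and it differed in sign between the title-code sets. In set 1 it was 1.58, against 0.31 for all genes, and 29 of 31 members had a positive change. In set 2 it was -0.16, against 0.01 for all genes, and 13 of 31 were positive. Positive changes were not counted over all genes. In set 1 both day 4 libraries had a higher mean member level than both day 2 libraries, and in set 2 both had a lower one. The difference between the sets, tested per gene as an interaction in limma, was called for 0 members (smallest adjusted p = 0.124, Chaf1b). An unadjusted p under 0.05 was found for 10 members, and the share of all genes at that level is not given here. Chaf1b changed by 3.79 in set 1 and -0.52 in set 2, Cdc45 by 3.97 and -1.40, and Uhrf1 by 4.56 and 0.26. At day 2 the set and the title letter cannot be told apart, since both libraries of set 2 carry the letter F. Against day 0 the sets shared direction at day 4, with medians of 2.42 in set 1 and 1.68 in set 2, and at day 2, with 0.80 and 2.12. The medians of all genes in sets 1 and 2 were 0.18 and 0.13 at day 4 and -0.16 and 0.10 at day 2.

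At day 7 the mean member level, 1.62 to 2.23, lay below that of every day 4 library, 2.75 to 4.03. Of the tested members 2 were lower at day 7 than at day 4, Pold2 and Uhrf1, and 0 were higher, where 1.5% of all genes tested were lower and 0.128% higher. Pold2 fell by 4.70 ± 0.91 on the log2 scale (limma adjusted p = 0.0192) and Uhrf1 fell by 3.61 ± 0.84 (adjusted p = 0.0432). With 1 library left out, the Pold2 call was lost in 5 of 16 fits (day 4 replicate 1, 2 or 4 or day 7 replicate 2 or 4; adjusted p up to 0.0822). The Uhrf1 call was lost in 12, all but those without day 2 replicate 1, 2 or 4 or day 7 replicate 1 (up to 0.153). For 11 members every day 7 library lay below every day 4 library, among them Pcna, Prim1, Gins1, Gins2, Gins4, Lig1, Chaf1b and Rad51ap1, and 8.66% of all genes tested did so. None of those named was called. The highest day 7 and lowest day 4 values were close for Pcna (49.2 and 49.3 FPKM), Prim1 (7.81 and 7.998), Gins2 (3.54 and 3.94) and Rad51ap1 (7.02 and 7.43). They were further apart for Gins4 (17.6 and 31.5) and Gins1 (10.1 and 13.9). The median change was -1.42 against -0.25 for all genes, with -2.05 in set 1 and -0.79 in set 2, where all genes had -0.37 and -0.10. Against day 2, limma called 0 members at day 7, where 0.0473% of all genes were called in each direction, and limma voom called 0. An unadjusted p under 0.05 was found for 6 members, all with negative changes, beside 9.18% of all genes. Pcna and Pold2 had every day 7 library below every day 2 library and 0 members had them above, beside 2.97% and 1.8% of all genes. Against day 0, Pclaf, Rpa3, Uhrf1 and Tipin still had all 4 day 7 libraries above all 4 day 0 libraries, beside 2.51% of all genes. For Uhrf1 and Pclaf this separation is between values near 0, down to 0.109 and 0.0644 FPKM at day 7.

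Companion lists of the cell cycle were read in the same fit, where 0.25%, 4.62% and 0.27% of all genes were higher at days 2, 4 and 7 than at day 0. In either direction, 9.73%, 20.9% and 12.1% of all genes had an unadjusted p under 0.05 in these comparisons. Of 16 tested MCM and origin licensing genes, 3 were higher at day 4 than at day 0, the helicase subunits Mcm5 (5.08 ± 1.13), Mcm7 (3.91 ± 0.81) and Mcm2 (3.63 ± 0.82), and 0 at day 2 (3 with an unadjusted p under 0.05, 0 with limma voom). Of 11 nucleotide synthesis genes, 3 were higher at day 4, Tyms, Nme1 and Dut, and 1 of these, the thymidylate synthase gene Tyms, was higher at day 2 as well (3.29 ± 0.54; adjusted p = 0.0153). Of 17 mitotic genes, 7 were higher at day 2, among them Ccnb2 (6.50 ± 0.80) and Birc5 (5.13 ± 0.67), 9 at day 4 and 2 at day 7. Of 14 E2F and cycle entry genes, 2 were higher at day 4, Ccne1, the cyclin that starts S phase, and Cdkn1a, which encodes the inhibitor p21. Of 13 chromatin copying genes, 2 were higher at day 4, Hat1 and Rbbp7. Of 17 other fork genes limma called 0 at days 2, 4 and 7 against day 0, where 2, 5 and 4 had an unadjusted p under 0.05, and of 13 repair genes it called 0, where 1, 1 and 0 did; limma voom called none of either list. At day 7 against day 4, 4 licensing genes were lower, Mcm7, Mcm6, Mcm2 and Mcmbp, beside 1.5% of all genes. The chromatin copying gene Ssrp1 (-2.75 ± 0.59) and the mitotic gene Nusap1 (-3.30 ± 0.56) were lower as well. Nusap1 was also lower at day 7 than at day 2 (-3.18 ± 0.56), beside 0.0473% of all genes.

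Summed levels of the module and of the mitotic list were compared by day and by title-code set. The summed level of the 35 members had medians of 185, 536, 772 and 298 FPKM at days 0, 2, 4 and 7, and that of the mitotic genes had medians of 8.0006, 548, 327 and 111 FPKM. The module sums at day 4 were 779 and 995 FPKM in set 1 and 477 and 766 in set 2, and at day 2 they were 366 and 424 in set 1 and 648 and 655 in set 2. The mitotic sums at day 4 were 711 and 481 FPKM in set 1 and 136 and 173 in set 2, and at day 2 they were 555 and 309 in set 1 and 698 and 541 in set 2. The mean sum of both lists was higher at day 4 in set 1, and in set 2 only the mitotic sums were separated between the days, with day 4 below day 2. The difference between the lists was not tested.

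**Figure D4:**
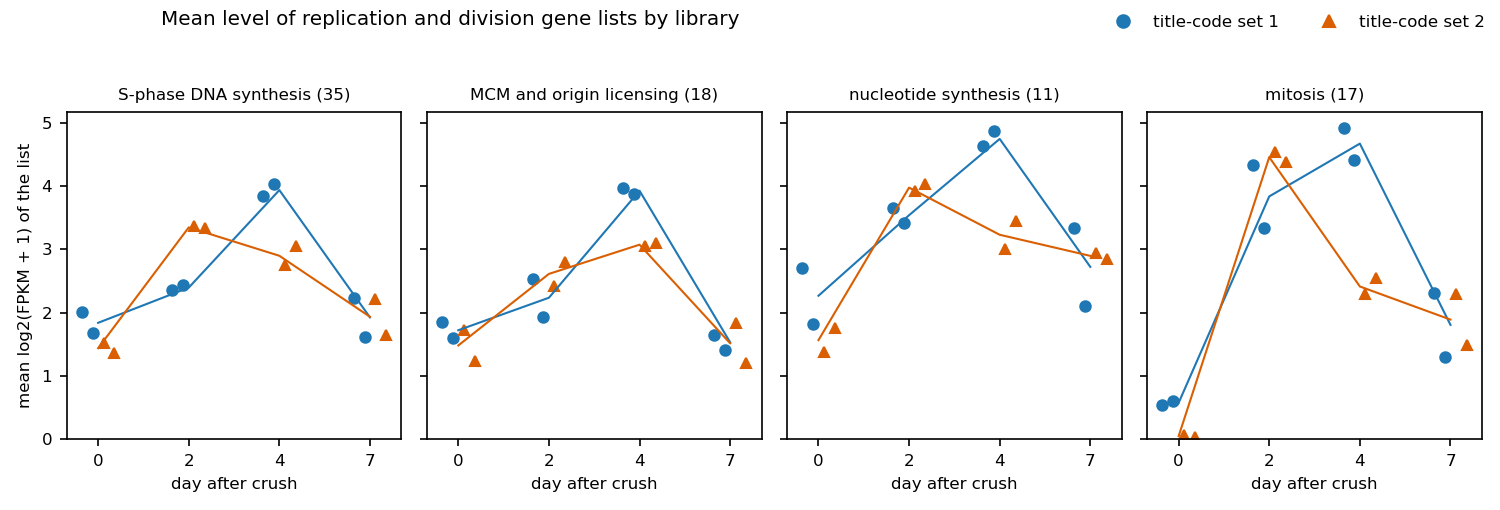
Mean log2(FPKM + 1) of the module and of 3 companion lists (gene numbers in brackets) in each library, by day; circles and triangles are title-code sets 1 and 2, and lines join the means of each set. All 4 lists stand highest at day 4 in set 1, and in set 2 the module, nucleotide and mitotic lists stand highest at day 2 and the licensing list at day 4.

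Some genes of other retinal cells differed between the same days. The 10 bipolar cell markers summed to 0.452 to 58.3 FPKM at day 4 and 58.2 to 403 FPKM at day 0, and 3 of 10 (Cabp5, Pcp2 and Gng13) were lower at day 4, with Cabp5 listed at 0 in 3 of the 4 day 4 libraries. The 12 Mueller glia markers summed to 593 to 6543 FPKM at day 4 and 2321 to 4177 FPKM at day 0, and 1 of 12, Glul, was lower. Apoe made up most of these sums, at 487 to 6476 FPKM at day 4 and 1850 to 3657 FPKM at day 0. Among the others, Rlbp1 was at 0.509 to 16.7 FPKM at day 4 and 58.6 to 426 FPKM at day 0, and Aqp4 was listed at 0 in all 4 day 4 libraries. Of the 12 Mueller glia markers, 6 had an unadjusted p under 0.05 at day 4, beside 20.9% of all genes, and the median change of the list was -1.93. The 12 microglial markers summed to 6451 to 8803 FPKM at day 4 and 3278 to 12985 FPKM at day 0, and 1 of 12, Fcrls, was higher. The 8 endothelial markers summed to 0.337 to 7.70 FPKM at day 4 and 0.0682 to 402 FPKM at day 0. Of the neuronal markers 1 of 7 tested, Syn1, was lower at days 2, 4 and 7. At day 4 limma called 0 of 10 rod, 0 of 3 endothelial and 0 of 1 lymphocyte markers tested (no erythrocyte marker was tested), and limma voom called 0. An unadjusted p under 0.05 was found for 2, 1 and 0 of these, beside 20.9% of all genes. With the mean level of the bipolar and Mueller lists as a covariate, 0 members were called at day 4, where calls over all genes, in either direction, were 0.0676% in that fit and 5.34% without the covariate. The median member change was 2.37 in that fit and 2.02 without it, and the 8 members called without it had changes of 2.85 to 5.32 with it, such as 5.32 for Uhrf1 (adjusted p = 0.124). Of 3 tested monocyte markers Ms4a4c was higher at day 4 and, with Plac8, at day 7. All 3 had an unadjusted p under 0.05 at day 7, beside 12.1% of all genes, with a median change of 3.14. The 10 monocyte markers summed to 2.83 to 20.2 FPKM at day 0, 12.2 to 17.1 at day 4 and 54.1 to 118 at day 7. Ccr2, a marker of classical monocytes, did not exceed 0.18 FPKM in any library and was not tested. The part of these cells in the member changes was not tested.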

How the data were processed

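RNA of sorted Iba1-EGFP-positive retinal cells was amplified as cDNA and made into libraries with the Nextera XT kit, per the labels' protocols; the labels give no number of cells per library, and the kit keeps no strand. The authors deposited FPKM per gene, from reads mapped with STAR 2.7.2b to GRCm38.p6 (mm10) and counted with featureCounts 1.6.1, per the submitters' processing notes. How multi-mapping reads were handled: not given in the sources used here. Reads recovered from FPKM and gene length fell on steps of 0.01 read (tolerance 0.02 steps) for 100% of values.

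Groups came from the labels. FPKM was taken as log2(FPKM + 1), genes reaching 1 FPKM in 4 or more of the 16 libraries were kept, and limma 3.58.1 (R 4.3.3; lmFit, eBayes with trend, two-sided) was fitted to all libraries with a mean per day and the title-code set (codes of 2 separate number ranges in the titles) as covariate. p-values were adjusted by Benjamini-Hochberg over all 14795 genes, with a threshold of 0.05. The fit was tested on simulated data. The members and all lists were chosen with earlier results of these data known. Values per library are given for each member called against day 0 or day 2 and for Pcna, and values of other members, such as Pold2, Rpa3, Rfc4 and Gins4, were added after they were seen; companion lists are given as counts with at most 4 called genes of largest change, except where all called genes of a list are named. The companion lists are licensing, other fork proteins, chromatin copying, nucleotide synthesis, mitosis, repair, and E2F and entry; the cell lists are microglia, rod, bipolar, Mueller glia, neuron, endothelial, monocyte, erythrocyte and lymphocyte. Copies were sought with BLASTN 2.17.0 at 95% identity over at least 100 bases. Depth is 8647276 to 15708302 reads per library, and 3 reads in a gene of 1 kb equal 0.191 to 0.347 FPKM, which covers counting error only. Alternatives were another pseudocount, filter, scaling, covariate, trend and tool (limma voom on recovered reads), the replicate block, each title-code set alone, libraries left out, and other promoter windows and elements. Figures were drawn with matplotlib 3.10.9.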

Additional observations from a re-analysis of the deposited data

Results flagged for a closer look

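In 20 of the 140 groups of 4 libraries (35 genes on 4 days), 1 library stood apart from the other 3 by more than Dixon's 95% critical value for 4 values. That cutoff flags about 5% of groups by chance only where values are independent and normally distributed. Many groups here hold values at or near 0, and the genes share libraries, so the count cannot be set against 5%. Pola1 had 0.639 FPKM in day 0 replicate 1 against at most 0.033 in the other 3, and 4.67 FPKM in day 4 replicate 1 against at most 0.0114 in the other 3. Prim1 had 9.89 FPKM in day 0 replicate 2 against at most 0.377 in the other 3. Pold1 had 14.7 FPKM in day 7 replicate 3 against at most 0.0637 in the other 3. Pold2 had 7.45 FPKM in day 7 replicate 1 against at most 0.382 in the other 3. Pole had 0.391 FPKM in day 4 replicate 2 against at most 0.00766 in the other 3. Pole2 had 0.194 FPKM in day 0 replicate 2 against at most 0.0201 in the other 3, and 6.81 FPKM in day 2 replicate 3 against at most 0.0771 in the other 3, and 2.09 FPKM in day 7 replicate 1 against at most 0.0705 in the other 3. Cdc45 had 3.48 FPKM in day 0 replicate 1 with the other 3 listed at 0. Gins3 had 6.56 FPKM in day 4 replicate 1 against at most 0.0861 in the other 3, and 0.954 FPKM in day 7 replicate 2 against at most 0.112 in the other 3. Chaf1b had 1.44 FPKM in day 7 replicate 2 against at most 0.0217 in the other 3. Clspn had 0.386 FPKM in day 2 replicate 2 with the other 3 listed at 0, and 0.614 FPKM in day 4 replicate 2 with the other 3 listed at 0. Rad51ap1 had 0.736 FPKM in day 0 replicate 1 against at most 0.0204 in the other 3. Rpa2 had 0.0779 FPKM in day 4 replicate 3 against at least 14.9 FPKM in the other 3. Cdc45 had a listed 0 in day 4 replicate 3 against at least 15.6 FPKM in the other 3. Gins4 had a listed 0 in day 7 replicate 4 against 14.02 to 17.6 FPKM in the other 3. Tipin had a listed 0 in day 0 replicate 3 against at least 12.9 FPKM in the other 3. No cause was tested for any of these libraries.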

How the results depend on the processing

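No called change reversed: the 11 called changes of single genes were re-estimated 330 times, with 213 past the threshold, 117 not past it and 0 reversed. Percentages in brackets are the calls over all genes in the same fit, in either direction. Day 4 against day 0 had 8 members called (5.34%). It had 4 with no filter on low values (0.624%), 3 with median-of-ratios factors (1.82%) and 5 with only the 2 groups compared (2.71%). With pseudocount 5 it had 12 (6.31%), adding Pold2, Rfc4, Rpa3 and Gins1. It had 0 in title-code set 2 alone and 0 with the bipolar and Mueller covariate (0.0676%). Leaving out 1 library gave 2 to 10. Set 2 alone called 0% of all genes tested in each comparison. Day 2 against day 0 had 1 member called (0.311%), Asf1b, whose call was kept in 2 of 14 alternatives beside the libraries left out. The 1 called was Pclaf in its place with pseudocount 0.1 (0.311%), limma voom (0.345%) or only the 2 groups compared (0.264%). Day 2 had 2 with the full title code (0.852%) and with pseudocount 5 (0.25%). It had 0 with no set covariate (0.243%), no filter (0.0283%), median-of-ratios factors (0.331%) or no trend (0.264%). It also had 0 in set 1 alone (0.135%), set 2 alone, with the bipolar and Mueller covariate (0%) or without both F libraries (0.00676%). Leaving out 1 library gave 0 to 2. Day 7 against day 4 had 2 (1.63%). It had 1 with the full title code (0.703%), no trend (0.994%) or limma voom (0.994%, Chaf1b in that fit). It had 0 with pseudocount 0.1 (1.31%), no filter (0.128%), median-of-ratios factors (0.493%) or only the 2 groups compared (0.0406%). It also had 0 in set 1 alone (0%), set 2 alone or with the bipolar and Mueller covariate (0.169%). Leaving out 1 library gave 0 to 3. The F test had 6, 2 with pseudocount 0.1, no trend or without both F libraries, and 0 with no filter, median-of-ratios factors, either set alone or the bipolar and Mueller covariate; leaving out 1 library gave 0 to 6. The median member change at day 2 against day 0 was 1.40, 2.24 with pseudocount 0.1 and 2.81 with limma voom; at day 4 against day 0 it was 2.02, 2.84 with pseudocount 0.1 and 3.42 with limma voom. At day 7 against day 0 it was 0.25 and 1.26 with the full title code, at day 4 against day 2 0.48 and 1.58 in set 1 alone, at day 7 against day 2 -1.07 and -0.12 without both F libraries, and at day 7 against day 4 -1.42 and -2.37 with limma voom. The share of members with an E2F-type element was 74.1%, 40.7% with only the 250 bases before the start (9.01% of all genes) and 37.0% with TTCGCGC and TTGGCGC only (4.47%). The cause of these differences was not tested.

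With the replicate number as a block, 0 members were called at day 2 against day 0 (0.203% of all genes). That fit called 7 at day 4 against day 0 (3.83%), 1 at day 7 against day 4 (1.03%) and 1 by the F test. Deviations of same-numbered libraries correlated at -0.06 to 0.23 across genes, over 0.1 in 5 of 24 pairs, so the numbers were not taken to pair the samples. At day 0 Pclaf had at most 2 reads and Uhrf1 at most 1 read in a library, so depth limits how exactly the size of their changes is known.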
